A study of Mus musculus with 6 samples.

Results

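Caveolae are flask-shaped pits of the plasma membrane, and the 9 genes described here encode their coat and its accessory proteins. They were fixed by name as the caveolins Cav1 and Cav2, the cavins Cavin1, Cavin2 and Cavin3, the membrane-bound ATPases Ehd1, Ehd2 and Ehd4, and the membrane-bending protein Pacsin2. All 9 were found by their Ensembl identifiers among the 24520 genes of the table. Their RNA was measured in lung endothelial cells of wild-type mice, obtained by fluorescence-activated sorting, in 3 libraries labelled Aged, from mice 18 months old, and 3 libraries labelled mAdu, from mice 8 months old. Both groups carry the same genotype label, wt, and no other treatment is given. Whether the 3 libraries of an age stem from different mice is not stated in the labels. The p-values therefore reflect only how far these libraries spread, in which technical variation may have a share. The values are TPM, a transcript abundance that is scaled to transcript length and to the sum of each library, so levels of different genes can be set side by side.

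A caveola forms when caveolin oligomers, inserted into the inner leaflet of a membrane rich in cholesterol, are wrapped by a coat of cavin trimers. EHD ATPases sit at the neck and hold the pit at the cell surface, and PACSIN2, a protein with an F-BAR domain, senses and stabilises its curvature. Endothelial cells of the lung are among the cells richest in caveolae, where the pits buffer membrane tension, carry solutes across the vessel wall and hold signalling proteins such as the nitric oxide synthase of endothelium. Alveolar type 1 cells, smooth muscle cells, fibroblasts and fat cells also make caveolae.

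The series is about DNMT3A, an enzyme that methylates DNA, and for that reason the CpG dinucleotides, the main sites of DNA methylation in mammals, were counted in the 250 bases before the RefSeq start of each gene (GRCm38.p6). Methylation itself was not analysed here. A RefSeq window was found for 7 of the 9 genes, all except Cavin3 and Ehd1. The windows held 2 CpG in Cavin2, 10 in Cav1, 10 in Cav2, 12 in Cavin1, 12 in Ehd2, 18 in Pacsin2 and 21 in Ehd4, where the median of 32851 windows in the RefSeq table was 6 and the quartiles were 2 and 16. Cavin2 thus had the window poorest in CpG and in GC content (40.4%) of the 7, whereas those of the other 6 held 58.0% to 67.6% GC. The letters GGGCGG (a GC box) were found on either strand in all 7 windows except that of Cavin2, and in 32.7% of all windows. The letters CCAAT were found on either strand in all 7 except Cav1 and in 33.8% of all windows. TATAAA was found on either strand in Cav1 alone of the 7 and in 12.4% of all windows. In Cav1 it lies on the opposite strand and reads TTTATA on the strand of the gene. These are matches of letters within the window, and no binding was measured. Of these windows, 4 are given 5′ to 3′ on the strand of the gene, with each CpG in capitals: the neighbours Cav1 (chr6:17306085-17306334, + strand) and Cav2 (chr6:17280935-17281184, + strand), the CpG-poor Cavin2 (chr1:51288876-51289125, + strand), and Ehd2 (chr7:15967568-15967785, - strand), the gene with the smallest unadjusted p between the ages. Of Ehd2, the 218 bases outside the annotated gene are shown, which hold 8 of the 12 CpG of its window. The window of Ehd4 also reaches into its annotated gene, with 17 of its 21 CpG outside. That of Cavin1 lies wholly inside the annotated gene, so its counts are not of sequence before the gene by that annotation.
Cav1: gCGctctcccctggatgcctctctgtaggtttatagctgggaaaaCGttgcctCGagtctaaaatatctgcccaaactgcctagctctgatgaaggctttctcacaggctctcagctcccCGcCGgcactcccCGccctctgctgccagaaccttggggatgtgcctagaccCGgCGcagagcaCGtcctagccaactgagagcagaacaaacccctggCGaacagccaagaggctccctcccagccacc
Cav2: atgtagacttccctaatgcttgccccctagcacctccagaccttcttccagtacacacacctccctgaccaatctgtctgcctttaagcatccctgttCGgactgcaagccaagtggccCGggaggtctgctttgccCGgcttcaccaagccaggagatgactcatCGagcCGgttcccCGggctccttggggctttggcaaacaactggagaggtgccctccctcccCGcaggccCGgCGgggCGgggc
Cavin2: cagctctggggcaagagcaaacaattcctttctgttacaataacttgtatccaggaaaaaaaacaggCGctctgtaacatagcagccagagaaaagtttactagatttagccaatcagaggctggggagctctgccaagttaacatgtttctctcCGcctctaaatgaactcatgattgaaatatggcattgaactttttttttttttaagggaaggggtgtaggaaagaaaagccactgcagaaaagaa
Ehd2: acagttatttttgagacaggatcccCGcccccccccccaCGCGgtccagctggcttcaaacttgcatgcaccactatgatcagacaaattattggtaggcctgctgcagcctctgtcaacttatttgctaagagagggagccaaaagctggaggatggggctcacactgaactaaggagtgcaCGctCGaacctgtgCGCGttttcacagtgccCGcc

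In the GENCODE annotation of GRCm38 (mm10), Cav2 (6:17281185-17289115, + strand) ends 17219 bases before the start of Cav1 (6:17306335-17341452, + strand), with 0 genes annotated wholly between them. Gm15581, an antisense gene, spans that interval. It is not among the genes of the table and shares 0 exon bases with Cav2 or Cav1, both of which it overlaps. The other 7 lie apart from this pair, Cavin1 on chromosome 11 (100956733-100970887, - strand), Cavin2 on chromosome 1 (51289126-51302960, + strand), Cavin3 (105480083-105482300, - strand) and Ehd2 (15946958-15967567, - strand) on chromosome 7, Ehd1 on chromosome 19 (6276725-6300096, + strand), Ehd4 on chromosome 2 (120089175-120154606, - strand) and Pacsin2 on chromosome 15 (83375607-83464606, - strand). The genes are related within families. Coding sequences were identical at 62.6% of aligned bases between Cav1 and Cav2, at 62.9% to 69.3% between the 3 cavins, and at 70.7% to 74.2% between the 3 EHD genes. No run of 31 bases in the transcripts of any of the 9 genes occurred in another of the 9. Cav1, Cav2, Cavin1, Cavin2 and Ehd4 shared no such run with any other gene, and Ehd1 shared 0.27% of its runs with its relative Ehd3. Ehd2 shared 0.63% of its runs, and Pacsin2 0.48%, with a large number of other genes. Cavin3 was the exception, with 21.08% of its 1632 runs shared with Gm45667, a predicted transcript on the opposite strand that overlaps 374 exon bases. The library kit does not mark the strand, so reads from those bases cannot be told apart, and the Cavin3 level is uncertain to that extent. Gm45667 is not among the genes of the table, so no level of it can be set beside that of Cavin3.

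The libraries carried the RNA of endothelial cells. Pecam1, which encodes the junction protein CD31, averaged 1354.0 ± 76.4 TPM in the 18-month libraries and 1350.5 ± 62.4 TPM in the 8-month libraries (SD, n = 3 each). The summed level of 8 endothelial markers was 10541.5 to 11293.7 TPM at 18 months and 11424.1 to 12738.3 TPM at 8 months, so the sums stood apart, and 3 of the 8 were lower in every 18-month library, Cdh5, Kdr and Cldn5. Of all genes tested below, 14.2% were lower in every 18-month library. Of the 8, 7 had a log2 difference below 0, all except Pecam1, beside 66.2% of all tested genes. Under median-of-ratios scaling or quantile normalization 5 of the 8 did, beside 49.0% and 50.7% of all tested genes. After a correction for GC content and length 4 of the 8 did, beside 51.0%. The part of these endothelial marker differences in the levels of the caveolae genes was not tested. RNA typical of other lung cells was present as well. Markers of alveolar type 2 cells summed to 4292.9 to 7021.4 TPM at 18 months and 5290.9 to 12943.9 TPM at 8 months, and those of club cells to 5628.1 to 13048.5 TPM at 18 months and 5968.7 to 7796.2 TPM at 8 months. The TPM of the table sum to 869315 to 876126 per library, and the read depth is unknown.

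The summed level of the 9 genes was 8265, 7784 and 8865 TPM in the 18-month libraries and 8888, 9397 and 8817 TPM in the 8-month libraries, or 0.89% to 1.02% of each table at 18 months and 1.01% to 1.08% at 8 months. The ranges of the 2 ages overlapped. Cav1, Cav2, Cavin1 and Cavin2 gave 85.8%, 88.1% and 86.3% of that sum in the 18-month libraries and 85.8%, 83.1% and 83.3% in the 8-month libraries. Each of these 4 genes ranked among the 82 most abundant of the table in every library, and Cav1 between 26 and 35. Ehd4 and Ehd2 ranked between 121 and 509, Ehd1 between 658 and 961, Cavin3 between 2379 and 4957, and Pacsin2 between 3667 and 6235. The order of the mean levels was the same at both ages, Cav1, Cav2, Cavin2, Cavin1, Ehd4, Ehd2, Ehd1, Cavin3 and Pacsin2 from high to low. At 18 months the ranges of neighbouring genes overlapped for Cav2 and Cavin2, for Cavin2 and Cavin1, and for Cavin3 and Pacsin2. At 8 months no neighbouring ranges overlapped.

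**Figure D1:**
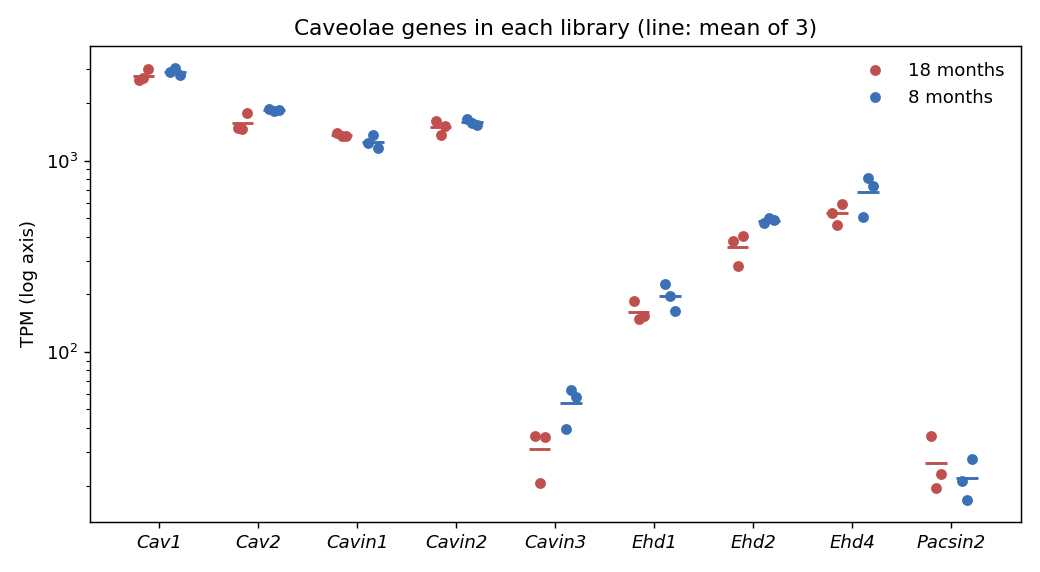
Level of each caveolae gene in the 6 libraries, in TPM on a log axis, with 18 months (3 points) left of 8 months (3 points) for each gene and a line at each mean. The caveolins, Cavin1 and Cavin2 lie between 1165.0 and 3062.7 TPM in every library, while Cavin3 and Pacsin2 lie between 16.8 and 63.2 TPM.

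Between 18 and 8 months, 0 of the 9 genes passed the threshold of 0.05 in limma's moderated test, adjusted over the 12748 genes whose mean reached 1 TPM, and 3 of those 12748 genes (0.0235%) did. At an unadjusted p under 0.05, 2 of the 9 were lower at 18 months, Ehd2 and Cavin3, where 9.99% of all tested genes were, and 0 were higher, where 3.45% of all tested genes were. The ages did not overlap for 3 of the 9, Cav2, Cavin3 and Ehd2, each lower in every 18-month library, where 14.2% of all tested genes were, and 0 of the 9 were higher without overlap (4.48% of all tested genes). The fitted log2 difference lay below 0 for 7 of the 9, beside 66.2% of all tested genes. It did so for 5 of the 9 under median-of-ratios scaling, beside 49.0% of all tested genes. Under quantile normalization it did so for 7, beside 50.7%, and after a correction for GC content and length for 6, beside 51.0%. The median of the 9 differences was -0.23, beside -0.079 over all tested genes. The median of the 9 was -0.14 under median-of-ratios scaling, -0.16 under quantile normalization and -0.11 with library weights. It was -0.055 after the correction for GC content and length, and -0.15 without replicate 1 of the 8-month group. In RNA from many cells, fewer cells of a type and less RNA per cell cannot be told apart, and this holds for each value given here.

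**Figure D2:**
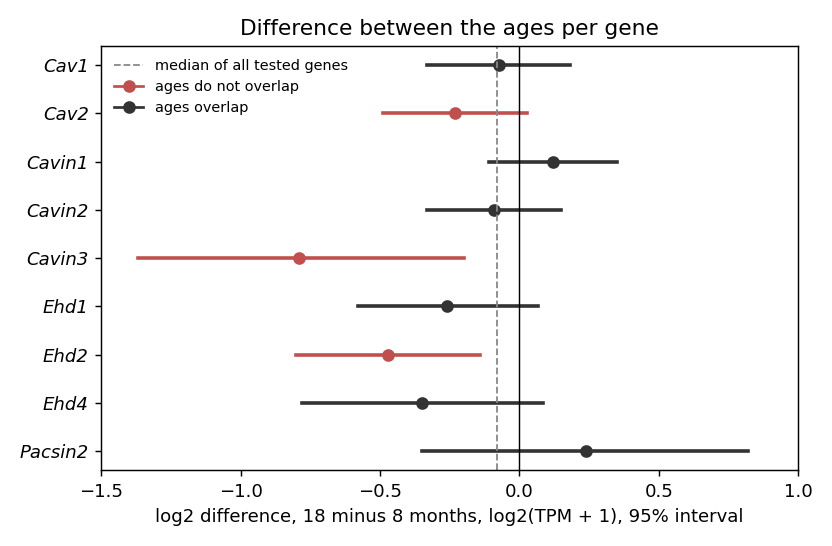
Fitted log2 difference of each caveolae gene, 18 minus 8 months, in log2(TPM + 1), with its 95% interval. The intervals of Cavin3 (-1.37 to -0.20) and Ehd2 (-0.80 to -0.14) lie below 0 and those of the other 7 include 0, and the dashed line is the median of all tested genes (-0.079). The points of Cav1 and Cavin2 lie above 0 under median-of-ratios scaling and that of Ehd1 once GC content and length are corrected for.

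The caveolins form the scaffold of the pit. Cav1, without which endothelial cells of mice make no caveolae, was the most abundant of the 9 at 2621.8, 2687.3 and 3027.2 TPM in the libraries of 18 months, against 2888.8, 3062.7 and 2807.4 TPM in the 8-month libraries. The ages overlapped through replicate 3 of 18 months, while replicates 1 and 2 of 18 months lay below the 8-month range. Its log2 difference was -0.073 (SE 0.11, 95% interval -0.33 to 0.18, limma adjusted p = 0.83), and it took the other sign under median-of-ratios scaling (0.021) and with library weights (0.0072). With 1 library left out it lay between -0.14 (without replicate 3 of 18 months) and -0.033 (without replicate 1 of 18 months). Cav2, a partner that oligomerises with caveolin-1 and depends on it to reach the cell surface, lay at 1475.5, 1466.9 and 1779.0 TPM in the libraries of 18 months, against 1852.2, 1817.0 and 1847.1 TPM in the 8-month libraries. Every 18-month library was below every 8-month library, and replicate 3 of 18 months came closest to the 8-month range. The 8-month libraries agreed closely, with a coefficient of variation of 11.3% at 18 months and 1.0% at 8 months. The mean was 1573.8 ± 178 TPM at 18 months and 1838.8 ± 19.0 TPM at 8 months (SD, n = 3 each), 14.4% lower at 18 months, with a log2 difference of -0.23 (SE 0.11, 95% interval -0.49 to 0.029, limma adjusted p = 0.43). The difference was -0.14 under median-of-ratios scaling and -0.11 with library weights, and the groups overlapped under median-of-ratios scaling and quantile normalization.

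The cavins coat the cytoplasmic face of the pit. Cavin1, the subunit needed for caveolae in every tissue studied in mice, lay at 1393.1, 1343.7 and 1336.0 TPM in the libraries of 18 months, against 1237.5, 1356.4 and 1165.0 TPM in the 8-month libraries. The 18-month libraries were close to each other and lay within or above the 8-month range. Its log2 difference was 0.12 (SE 0.10, 95% interval -0.11 to 0.35, limma adjusted p = 0.67), and it was 0.21 under median-of-ratios scaling and 0.35 after the correction for GC content and length (adjusted p = 0.49 and 0.24), in both of which every 18-month library was above every 8-month library. Without replicate 3 of 8 months, the lowest library, the difference was 0.067. Cavin2, which binds phosphatidylserine and shapes the curvature of the pit, lay at 1601.5, 1357.1 and 1511.7 TPM in the libraries of 18 months, against 1646.4, 1576.8 and 1525.7 TPM in the 8-month libraries. The ages overlapped, with replicate 2 of 18 months lowest. Its log2 difference was -0.090 (SE 0.10, 95% interval -0.33 to 0.15, limma adjusted p = 0.77), -0.024 without replicate 2 of 18 months, -0.14 without replicate 1 of 18 months and 0.0042 under median-of-ratios scaling.

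Cavin3, a cavin linked to the traffic of caveolae and to signalling through ERK and Akt, was far less abundant than its relatives. It lay at 36.2, 20.7 and 36.0 TPM in the libraries of 18 months, against 39.5, 63.2 and 58.4 TPM in the 8-month libraries. Replicate 2 of 18 months was lowest, and replicate 1 of 8 months lay just above the 18-month range. The mean was 31.0 ± 8.88 TPM at 18 months and 53.7 ± 12.6 TPM at 8 months (SD, n = 3 each), a ratio of 0.58. The log2 difference was -0.79 (SE 0.25, 95% interval -1.37 to -0.20), the largest in size of the 9, with an unadjusted p of 0.015 and a limma adjusted p of 0.24. Over the 19 alternative settings it lay between -0.99 and -0.53, with adjusted p between 0.16 and 0.52. The -0.53 and the 0.52 came without replicate 2 of 18 months. Under each scaling tried every 18-month library was below every 8-month library.

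The EHD proteins are ATPases that oligomerise on curved membranes. Ehd2, which encodes the one found at the caveolar neck, where it holds the pit at the surface, lay at 381, 280 and 404 TPM in the libraries of 18 months, against 471, 498 and 486 TPM in the 8-month libraries. Every 18-month library was below every 8-month library, and replicate 2 of 18 months was far below the other two of its age. The mean was 355 ± 66.3 TPM at 18 months and 485 ± 13.3 TPM at 8 months (SD, n = 3 each), a ratio of 0.73. The log2 difference was -0.47 (SE 0.14, 95% interval -0.80 to -0.14), with an unadjusted p of 0.012 and a limma adjusted p of 0.22. It was -0.30 without replicate 2 of 18 months and -0.28 after the correction for GC content and length, and the adjusted p lay between 0.17 and 0.46 over the 19 alternatives. Ehd4, which serves endosomes and has been found with EHD1 and EHD2 at caveolae, lay at 535, 460 and 594 TPM in the libraries of 18 months, against 505, 810 and 736 TPM in the 8-month libraries. The ages overlapped through replicate 1 of 8 months. Its log2 difference was -0.35 (SE 0.19, 95% interval -0.78 to 0.084, limma adjusted p = 0.47), and -0.55 without that library (adjusted p = 0.23). It was -0.21 without replicate 2 of 8 months. Ehd1, best known for returning receptors from recycling endosomes to the surface, lay at 184, 149 and 154 TPM in the libraries of 18 months, against 226, 196 and 164 TPM in the 8-month libraries. Replicate 3 of 8 months lay within the 18-month range. The log2 difference was -0.26 (SE 0.14, 95% interval -0.58 to 0.067, limma adjusted p = 0.48), -0.15 without replicate 1 of 8 months, -0.16 under median-of-ratios scaling and 0.010 after the correction for GC content and length. Ehd1 has the highest GC content of the 9 in its longest transcript, 58.6%, beside 37.5% in Cav2, the lowest.

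Pacsin2, which bends membranes early in the making of a caveola, was the least abundant of the 9 at 36.3, 19.5 and 22.9 TPM in the libraries of 18 months, against 21.0, 16.8 and 27.6 TPM in the 8-month libraries. The ages overlapped, and replicate 1 of 18 months stood above the other 5 libraries. The log2 difference was 0.24 (SE 0.25, 95% interval -0.35 to 0.82, limma adjusted p = 0.75), and it was -0.016 without that library, 0.072 without replicate 2 of 8 months, and 0.42 and 0.41 without replicate 2 of 18 months and replicate 3 of 8 months. The 8-month libraries varied by 24.8% of their mean and the 18-month libraries by 33.9%, the widest spread of the 9 at 18 months.

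Ratios of 2 genes within a library do not move with a factor that scales the whole library, so 7 of them were compared by exact permutation tests, 2-sided, in which 3 libraries against 3 cannot give a p below 0.10. The ratio of Cav2 to Cav1 was 0.563, 0.546 and 0.588 in the 18-month libraries and 0.641, 0.593 and 0.658 in the 8-month libraries. The ages did not overlap, though the highest 18-month value came close to the lowest 8-month value, and the mean was 0.565 ± 0.0210 at 18 months and 0.631 ± 0.0336 at 8 months (SD, n = 3 each; log2 difference -0.16). The ratio of Cavin2 to Cavin1 was 1.15, 1.01 and 1.13 in the 18-month libraries and 1.33, 1.16 and 1.31 in the 8-month libraries, again without overlap (log2 difference -0.21). That difference was -0.40 after the correction for GC content and length, in which the 2 transcripts differ (44.4% GC in Cavin2 and 57.3% in Cavin1).

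The ratio of Cavin3 to Cavin1 was 0.0260, 0.0154 and 0.0270 in the 18-month libraries and 0.0319, 0.0466 and 0.0502 in the 8-month libraries, with a log2 difference of -0.91. The ratio of Ehd2 to Cav1 was 0.145, 0.104 and 0.134 in the 18-month libraries and 0.163, 0.163 and 0.173 in the 8-month libraries, with a log2 difference of -0.39, or -0.25 without replicate 2 of 18 months and -0.23 after the correction for GC content and length. In both ratios every 18-month library was below every 8-month library. Each of these 4 ratios reached the smallest p the design allows, 0.10 by the exact permutation test, or 0.18 after adjustment over the 7 ratios, so none passed. The other 3 ratios overlapped between the ages. Cavin1 to Cav1 averaged 0.491 ± 0.0457 at 18 months and 0.429 ± 0.0140 at 8 months (SD, n = 3 each; exact permutation p = 0.20, adjusted 0.28). Ehd2 to Ehd4 averaged 0.667 ± 0.0534 at 18 months and 0.736 ± 0.172 at 8 months (exact permutation p = 0.80), and its log2 difference of -0.12 was 0.063 without replicate 1 of 8 months. Pacsin2 to Cav1 averaged 0.00956 ± 0.00372 at 18 months and 0.00753 ± 0.00217 at 8 months (exact permutation p = 0.40, adjusted 0.47), a log2 difference of 0.31, or 0.017 without replicate 1 of 18 months.

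**Figure D3:**
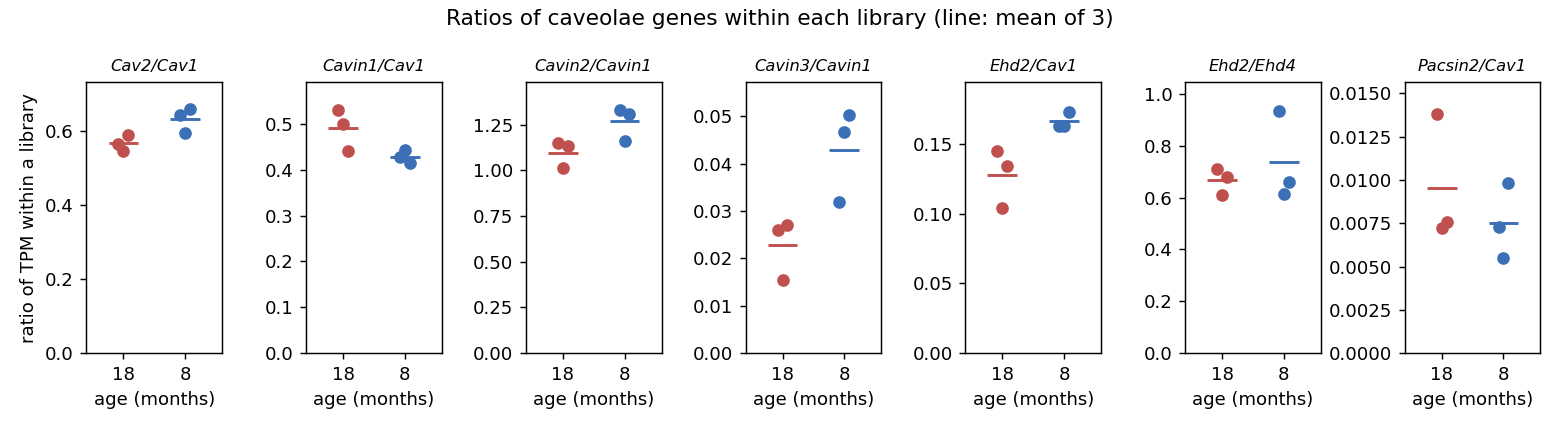
Ratio of the TPM of 2 caveolae genes within each library, with 18 months left of 8 months, a point for each of the 3 libraries and a line at each mean. Cav2/Cav1, Cavin2/Cavin1, Cavin3/Cavin1 and Ehd2/Cav1 are lower in all 18-month libraries than in any 8-month library, and the other 3 ratios overlap.

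The 9 genes did not vary alike across the 6 libraries. Likeness to Cav1 was measured as the root mean square difference in centred log2(TPM + 1) over the 6 libraries. It was set against 9113 genes whose mean reached 5 TPM. The 9 members, genes without a symbol, and predicted genes (named Gm with digits or ending in Rik) were left out of these. Of the other caveolae genes, Cav2 was nearest at 0.096, with 9.7% of the genes nearer to Cav1, followed by Cavin2 at 0.104 (13.3% nearer), Cavin1 at 0.127 (25.0%), Ehd1 at 0.206 (64.0%), Ehd2 at 0.246 (75.1%), Ehd4 at 0.251 (76.4%), Pacsin2 at 0.404 (92.1%) and Cavin3 at 0.475 (94.3%). Genes that vary little are near to Cav1 by this measure, because Cav1 varied little. The 5 nearest genes were Cyb5r3 (0.024), a cytochrome b5 reductase, Lias (0.028), the lipoic acid synthase, Sdha (0.028), a subunit of succinate dehydrogenase, Akr1e1 (0.029), an aldo-keto reductase, and Pdia3 (0.030), a disulfide isomerase. Cyb5r3 averaged 161 ± 9.80 TPM at 18 months and 170 ± 10.8 TPM at 8 months (SD, n = 3 each), a log2 difference of -0.075, beside -0.073 for Cav1.

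Genes around caveolae were described from 6 lists, in each of which 0 genes passed the adjusted threshold. Of 5 other members of the same families, Cav3, the caveolin of muscle, was listed at 0 in 5 libraries and at 0.188 TPM in replicate 1 of 8 months, and Pacsin1, known from neurons, averaged 0.0332 TPM at 18 months and 0.0119 TPM at 8 months. Cavin4, a cavin of muscle, averaged 3.10 TPM at both ages and Pacsin3 1.18 TPM at 18 months and 1.43 TPM at 8 months. Ehd3, the closest relative of Ehd1, lay at 13.1, 11.4 and 15.5 TPM in the libraries of 18 months, against 18.4, 17.0 and 18.1 TPM in the 8-month libraries. It was lower in every 18-month library, with a log2 difference of -0.40 (SE 0.14, limma adjusted p = 0.26), and overlapped between the ages under median-of-ratios scaling, quantile normalization and the correction for GC content and length.

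Of 13 tested genes for proteins found in endothelial caveolae or tied to them, 9 had a log2 difference below 0, beside 66.2% of all tested genes. The ages did not overlap for 6 of the 13, all 6 lower at 18 months, beside 14.2% of all tested genes. The list median was -0.19, or -0.10 under median-of-ratios scaling with 5 of 13 not overlapping (10.0% of all tested genes), and -0.089 after the correction for GC content and length with 4 of 13 (9.84%). Kdr, the main VEGF receptor, lay at 402, 331 and 385 TPM in the libraries of 18 months, against 520, 509 and 591 TPM in the 8-month libraries (log2 difference -0.54, SE 0.11, limma adjusted p = 0.14). Aqp1, the water channel of endothelium, lay at 377, 369 and 341 TPM in the libraries of 18 months, against 515, 459 and 470 TPM in the 8-month libraries (log2 difference -0.41, SE 0.093, limma adjusted p = 0.16). Both genes were clearly separated between the ages in every library. Nos3, the nitric oxide synthase that caveolin-1 binds and inhibits, lay at 19.1, 11.3 and 11.9 TPM in the libraries of 18 months, against 21.3, 25.9 and 21.5 TPM in the 8-month libraries (log2 difference -0.69, SE 0.20, limma adjusted p = 0.21). In contrast to these, Cd36, a fatty acid carrier, averaged 3198.5 TPM at 18 months and 2965.3 TPM at 8 months, with overlap. Kdr is also on the list of endothelial markers, and Gpihbp1 and Plvap are also on that of general capillary markers.

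Of 10 tested genes for the dynamins, kinases and actin links that act on caveolae, 8 lay below 0, with a median of -0.12. After the correction for GC content and length 5 of the 10 did. The shares of all tested genes below 0 were 66.2%, and 51.0% after that correction. Dnm3, a dynamin, lay at 11.6, 8.50 and 8.56 TPM in the libraries of 18 months, against 12.9, 34.8 and 22.2 TPM in the 8-month libraries (log2 difference -1.11, SE 0.32, limma adjusted p = 0.20), so the ages were separate while the 8-month libraries differed widely. Dnm2, the widely used dynamin that cuts vesicles from the membrane, averaged 63.5 ± 14.1 TPM at 18 months and 82.6 ± 5.92 TPM at 8 months (SD, n = 3 each; limma adjusted p = 0.35), and the kinase gene Abl1 averaged 14.3 ± 2.39 TPM at 18 months and 17.1 ± 1.53 TPM at 8 months (adjusted p = 0.52). The flotillins, which mark other cholesterol-rich membrane patches, had log2 differences of -0.25 (Flot1, adjusted p = 0.48) and -0.42 (Flot2, adjusted p = 0.25).

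The other main coated pit of the cell is built on clathrin. Of 15 tested clathrin coat genes, 13 lay below 0 under all scalings tried and after the correction for GC content and length, with a median of -0.24, close to the -0.23 of the caveolae genes. The ages did not overlap for 7 of the 15, all lower at 18 months, and for 2 under median-of-ratios scaling. Over all tested genes the share lower without overlap was 14.2%, and 10.0% under median-of-ratios scaling. The share of all tested genes below 0 was 66.2%, and 49.0% to 66.6% over the scalings and the correction. Ap2a2 and Ap2a1, alternative large subunits of the AP-2 adaptor, had log2 differences of -0.68 (SE 0.17) and -0.77 (SE 0.21), with limma adjusted p of 0.18 and 0.19. Clta, a clathrin light chain, had one of -0.25 (SE 0.093, limma adjusted p = 0.31). Of 16 genes of sterol synthesis and uptake, which serve the cholesterol that caveolae need, 10 lay above 0 and 6 below, with a median of 0.094, or 0.18 to 0.20 under median-of-ratios scaling, quantile normalization and the correction for GC content and length. Hmgcs1, an early enzyme of the pathway, lay at 46.9, 47.7 and 48.4 TPM in the libraries of 18 months, against 36.5, 44.5 and 34.0 TPM in the 8-month libraries (log2 difference 0.32, SE 0.12, limma adjusted p = 0.32), with every 18-month library above the 8-month range. Npc1, which exports cholesterol from lysosomes, had a log2 difference of -0.38 (SE 0.13, limma adjusted p = 0.26) and Dhcr7, the last enzyme before cholesterol, one of -0.56 (SE 0.27, limma adjusted p = 0.43).

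**Figure D4:**
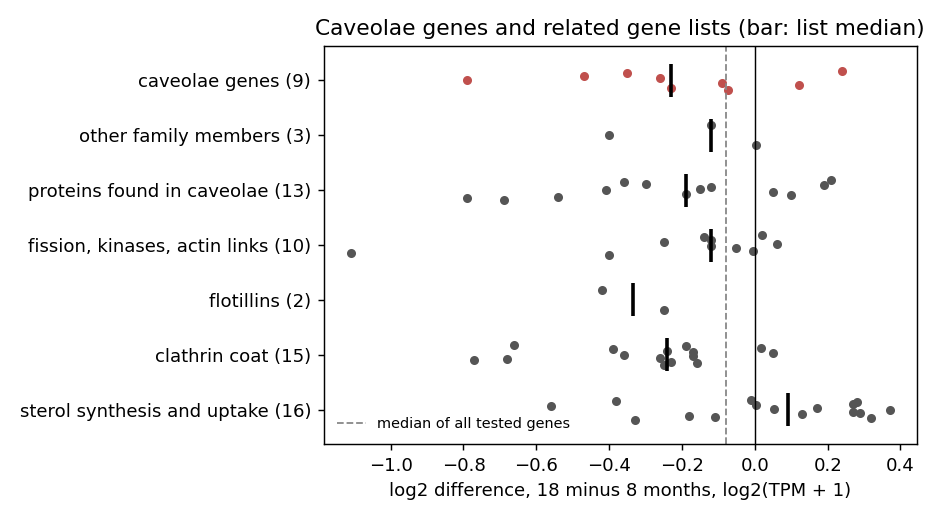
Log2 difference, 18 minus 8 months, in log2(TPM + 1), of each tested gene of the caveolae genes (top row) and of 6 related lists, with the number of tested genes in brackets, a bar at the median of each list and a dashed line at the median of all tested genes (-0.079). The caveolae and clathrin coat genes have medians of -0.23 and -0.24 and the sterol genes one of 0.094. Under median-of-ratios scaling the first 2 medians are -0.14 and -0.15, and that of the sterol genes is 0.18.

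The summed levels of several marker lists stood apart between the ages in the same libraries. Those of aerocytes, capillary cells given over to gas exchange, lay below 0 for 10 of 10 genes, beside 66.2% of all tested genes. The aerocyte markers summed to 4309.1 to 4951.4 TPM at 18 months and 5365.5 to 7057.4 TPM at 8 months. Markers of general capillary cells lay above 0 for 7 of 9 genes, beside 4303 of all 12748 tested genes. Plvap (log2 difference -0.79, limma adjusted p = 0.38) and Aplnr (-0.056) lay below 0. The general capillary markers summed to 5224.7 to 5749.6 TPM at 18 months and 4447.7 to 5018.7 TPM at 8 months. Venous markers lay below 0 for 7 of 7 genes and summed to 325 to 441 TPM at 18 months and 445 to 947 TPM at 8 months. Arterial markers summed to 817 to 944 TPM at 18 months and 565 to 725 TPM at 8 months, and without Gja4, the most abundant of them, the ages overlapped (286 to 338 TPM at 18 months and 278 to 322 TPM at 8 months). Lymphatic markers summed to 602 to 759 TPM at 18 months and 917 to 1153.4 TPM at 8 months. Nearly all of it was Lyve1, and the other 6 genes, of which Prox1 and Reln lay under 0.2 TPM in every library, overlapped at 26.9 to 40.8 TPM in sum at 18 months and 40.1 to 73.0 TPM at 8 months. Of the other cells that make caveolae, alveolar type 1 markers lay below 0 for 8 of 8 genes. Under median-of-ratios scaling and after the correction for GC content and length 7 of the 8 did, beside 49.0% and 51.0% of all tested genes. They summed to 347 to 382 TPM at 18 months and 416 to 493 TPM at 8 months. The larger part of that sum was Clic5, and the other 7 genes overlapped at 141 to 162 TPM in sum at 18 months and 160 to 230 TPM at 8 months. Markers of smooth muscle and pericytes summed to 17.3 to 20.1 TPM at 18 months and 25.5 to 33.7 TPM at 8 months, and those of fibroblasts to 15.5 to 20.9 TPM at 18 months and 24.9 to 41.0 TPM at 8 months, with overlap once Dcn is left out (11.2 to 16.7 TPM at 18 months and 14.6 to 26.8 TPM at 8 months). No listed marker passed the adjusted threshold, and none was at 0 in every library. The part of any of these in the values of Cav2, Cavin3, Ehd2 and the other caveolae genes was not tested.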

How the data were processed

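The deposited values are TPM, one column per library, and per the submitters' processing notes the authors used kallisto, which assigns reads to transcripts without full alignment, and the build mm10. Its version, the transcript set and any strand setting were not given in the sources used here. Per the labels' protocols, libraries were made from total RNA with the SMARTer Ultra Low kit and sequenced from both ends. TPM keep no depth, so no counting error is given. Gene names and positions came from GENCODE M21, which holds 24299 of the 24520 identifiers, and promoter windows from RefSeq.

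Differences are on the log2(TPM + 1) scale, which understates low genes, for 12748 genes whose mean reached 1 TPM. They were tested with limma 3.58.1 in R 4.3.3 (moderated test with intensity trend, 2-sided, Benjamini-Hochberg over all tested genes, threshold 0.05), checked on simulated data. Ratios used exact permutation tests (SciPy 1.17.1). The 9 members and the lists were chosen with earlier results of these data known. Named were all members, their other family members, the 3 genes with the smallest unadjusted p of each other list and the 5 nearest to Cav1. Cd36 was chosen after its values were seen. Alternatives were pseudocounts, filters, scalings, variance models, protein-coding genes alone, a loess correction for GC content and length (span 0.75), the replicate block and each library left out.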

Additional observations from a re-analysis of the deposited data

How the results depend on the processing

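No caveolae gene passed the threshold under any of the 19 alternatives. Of all tested genes, 3 passed, against 0 with no filter on low values, 16 with quantile normalization, 28 among protein-coding genes alone, 94 with library weights, and 0 to 2 with 1 library left out. Replicate numbers showed no sign of pairing the samples, with deviations of same-numbered libraries correlated at -0.01, -0.09 and 0.06. Deviations from the mean of only 3 libraries cannot show that no pairing was present. With the replicate block 0 genes passed, also when GC content and length were corrected for. At an unadjusted p under 0.05, 440 genes were higher and 1274 lower, a split that came to 740 and 895 under median-of-ratios scaling, 751 and 979 under quantile normalization and 773 and 854 with that correction. The median over all tested genes, -0.079, was 0.0057, -0.0033 and -0.0054 under these 3.

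The median of the caveolae genes, -0.23, was -0.14 under median-of-ratios scaling, -0.16 under quantile normalization and -0.11 with library weights. It was -0.055 after the correction for GC content and length, alone or with the replicate block, and lay between -0.23 and -0.15 with 1 library left out. Replicate 2 of 18 months was the lowest library for Cav2, Cavin2, Cavin3, Ehd1, Ehd2 and Ehd4. Without that library, 738 genes were lower and 397 higher at an unadjusted p under 0.05 in limma's test. Direction turned for Cav1 (0.021 under median-of-ratios scaling, 0.0072 with library weights), Cavin2 (0.0042 under median-of-ratios scaling), Ehd1 (0.010 after the correction for GC content and length, alone or with the block), Pacsin2 (-0.016 to 0.42 with 1 library left out) and the ratio Ehd2/Ehd4 (-0.24 to 0.063 with 1 library left out). The cause was not tested. Cav2, Cavin1, Cavin3, Ehd2 and Ehd4 and the other 6 ratios kept their direction under every alternative run. With 3 libraries an age and no depth, small differences could not be detected.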
